A study of Mus musculus with 6 samples.

Results

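Transcripts of 10 genes that build the basement membrane were measured in mouse embryonic stem cells by Illumina bead array. The genes were those for the collagen IV chains Col4a1 and Col4a2, the laminin chains Lama1, Lama5, Lamb1 and Lamc1, the linker proteins Nid1 and Nid2, the proteoglycan Hspg2 and the collagen-binding protein Sparc. They were chosen by name, and every probe that the platform's annotation assigns to them was taken, which gave 15 of the 45281 probes. Of these, 13 probes of 9 genes passed the filter on dim signals, which asked for 3 arrays or more with a detection p-value below 0.05, as did 17719 probes in all, and each of the 13 was detected on 6 of 6 arrays.

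The cells had received either a control transfection (3 arrays) or a pHYPER vector carrying a short hairpin RNA against the chromatin remodeller Chd9 (3 arrays, called shChd9), both by electroporation. All of them grew in DMEM with 15% serum and a saturating dose of leukemia inhibitory factor, on embryonic fibroblasts whose division mitomycin C had blocked, and all were selected with puromycin from 24 h after transfection for 48 h. The labels name no stem cell line or mouse strain, and they do not say whether samples came from separate cultures, so that p-values measure only the spread between these samples. The labels do not say what the control vector carried, and they give no step that removes the feeder fibroblasts before RNA preparation. All 6 arrays lay on 1 slide with each group in adjacent positions, so a position effect and a group effect cannot be told apart.

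The basement membrane is the thin sheet of matrix on which epithelia, endothelia and muscle rest. Laminin trimers, each of an alpha, a beta and a gamma chain, polymerise at the cell surface, a network of collagen IV is laid beside them, and nidogens and perlecan (the product of Hspg2) tie the networks together. In the early mouse embryo it is made by the primitive endoderm and its parietal descendants, which secrete very large amounts of collagen IV, laminin and Sparc, and stem cells also make laminin when they form embryoid bodies. Fibroblasts make collagen IV, laminins and Sparc as well. In bulk RNA fewer cells of a type and less RNA per cell cannot be told apart.

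Col4a1 and Col4a2 are neighbours on chromosome 8 and are transcribed in opposite directions from a shared promoter region, which is why their start regions are shown. The windows, from RefSeq (GRCm38.p6), run from 250 bases before to 50 bases after each annotated start. Col4a1 lies on the minus strand (chr8:11312777-11313076) and Col4a2 on the plus strand (chr8:11312555-11312854). Each is given 5′ to 3′ on its own strand, with the bases that both windows hold in capitals.
Col4a1: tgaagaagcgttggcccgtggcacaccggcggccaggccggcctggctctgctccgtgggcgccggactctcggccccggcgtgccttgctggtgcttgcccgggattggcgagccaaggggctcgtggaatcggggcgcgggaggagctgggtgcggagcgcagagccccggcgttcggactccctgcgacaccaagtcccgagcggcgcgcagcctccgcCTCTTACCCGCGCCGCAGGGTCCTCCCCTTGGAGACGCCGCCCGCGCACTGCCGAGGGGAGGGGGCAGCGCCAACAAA
Col4a2: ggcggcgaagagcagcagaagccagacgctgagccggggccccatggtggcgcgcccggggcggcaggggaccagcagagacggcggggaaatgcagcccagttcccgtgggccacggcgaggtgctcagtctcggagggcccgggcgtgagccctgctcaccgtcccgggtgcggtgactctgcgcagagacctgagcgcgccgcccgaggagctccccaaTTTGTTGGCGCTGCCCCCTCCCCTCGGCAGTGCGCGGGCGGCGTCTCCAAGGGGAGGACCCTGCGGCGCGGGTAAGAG
The 78 shared bases (chr8:11312777-11312854) read as reverse complements of each other in these lines, and the annotated starts lie 21 bases apart. The start of Col4a2 (11312805) has the lower coordinate and that of Col4a1 (11312826) the higher, so the annotated transcripts overlap at their 5′ ends. Each base in capitals thus lies at or after the start of 1 of the genes or of both, and not upstream of both. Within the shared stretch stands 1 GC box (GGGCGG, searched on both strands) and 0 CCAAT boxes (CCAAT, both strands). Over the whole windows the Col4a1 region held 1 GC box and the Col4a2 region 3, and each held 1 CCAAT box. Of the 10 genes, 7 had a window in the table (all but Lama1, Lamc1 and Nid2), and 6 of the 7 held a GC box, against 35.66% of all 32851 windows. The window of Sparc held neither motif, and 0 of the 7 held TATAAA on either strand, which 13.62% of all windows did. A match of letters is a description and not a binding site.

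Chd9 itself measured lower on both of its well-detected probes, with log2 fold changes of -1.11 and -1.13 (shChd9 over control, limma, adjusted p = 0.540 for each over all probes). A further tested probe, dim and detected on 5 arrays, measured 0.35 higher in shChd9 samples (adjusted p = 0.925). Between 39.2% and 40.8% of probes were detected per array. Of 20 stem cell markers 19 were tested, and 19 of these were detected on every array, among them Pou5f1, Nanog and Sox2. Of 35 fibroblast markers, a list that holds none of the 10 genes, 25 were tested and 21 of these were detected on every array, while 8 others on the array, Col1a2, Col3a1 and Postn among them, did not pass the filter. The mean of the 25 markers, called the feeder mean here, was 8.54, 7.52 and 8.02 in control 1 to 3, against 9.04, 7.91 and 8.31 in shChd9 1 to 3 (log2 intensity). By this mean shChd9 1 and control 1 were the highest arrays and control 2 was the lowest, and the highest mean was 2.85 times the lowest. Single markers did not all share this order. Their r to the feeder mean, of which each is a part, had a median of 0.89 and ran from 0.11 (Acta2) to 0.98 (Col6a1). Thy1, for example, was highest in shChd9 3 and control 3.

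The collagen IV chain Col4a2 was the gene of the 10 with the clearest difference between the groups. Its probe ILMN_2822579 read 8.62, 8.28 and 8.50 in control 1 to 3, against 9.55, 9.03 and 9.53 in shChd9 1 to 3 (log2 intensity after background correction and quantile normalization, as are all levels here). Every shChd9 array lay above every control array. The feeder mean of shChd9 2 was lower than those of control 1 and control 3, and the part of feeder cells in the Col4a2 values was not tested. The group means were 8.47 ± 0.18 and 9.37 ± 0.30 (SD, n = 3 each), a 1.87-fold higher level in shChd9 cells. The log2 fold change was 0.90 with a 95% interval of 0.47 to 1.34 (limma). It ranked 19 of 17719 probes by p, but its adjusted p over all probes was 0.908, and the exact two-sided permutation test gave p = 0.10, the smallest that 3 arrays against 3 allow.

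Its partner chain Col4a1, which joins Col4a2 in the same triple helix, followed another order of arrays. Probe ILMN_2621643 read 9.49, 9.10 and 9.09 in the controls, against 9.86, 9.15 and 9.41 under shChd9. Here control 1 lay above both shChd9 2 and shChd9 3, so the groups overlapped. The log2 fold change was 0.25 with an interval of -0.24 to 0.73 (limma, adjusted p = 0.947).

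The chains were then set against each other array by array, a comparison chosen after the values were seen. Taken on each array, the log2 signal of Col4a2 less that of Col4a1 was -0.86, -0.82 and -0.59 in the controls, against -0.31, -0.12 and 0.12 under shChd9. Only the shift of this difference carries meaning, since the levels of different probes cannot be set against each other. It was 0.65 higher in shChd9 cells, and every shChd9 array lay above every control array (exact two-sided permutation test, p = 0.10, the smallest possible). Each gene is read by 1 probe, so an effect of the gene and one of its probe cannot be told apart.

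**Figure D1:**
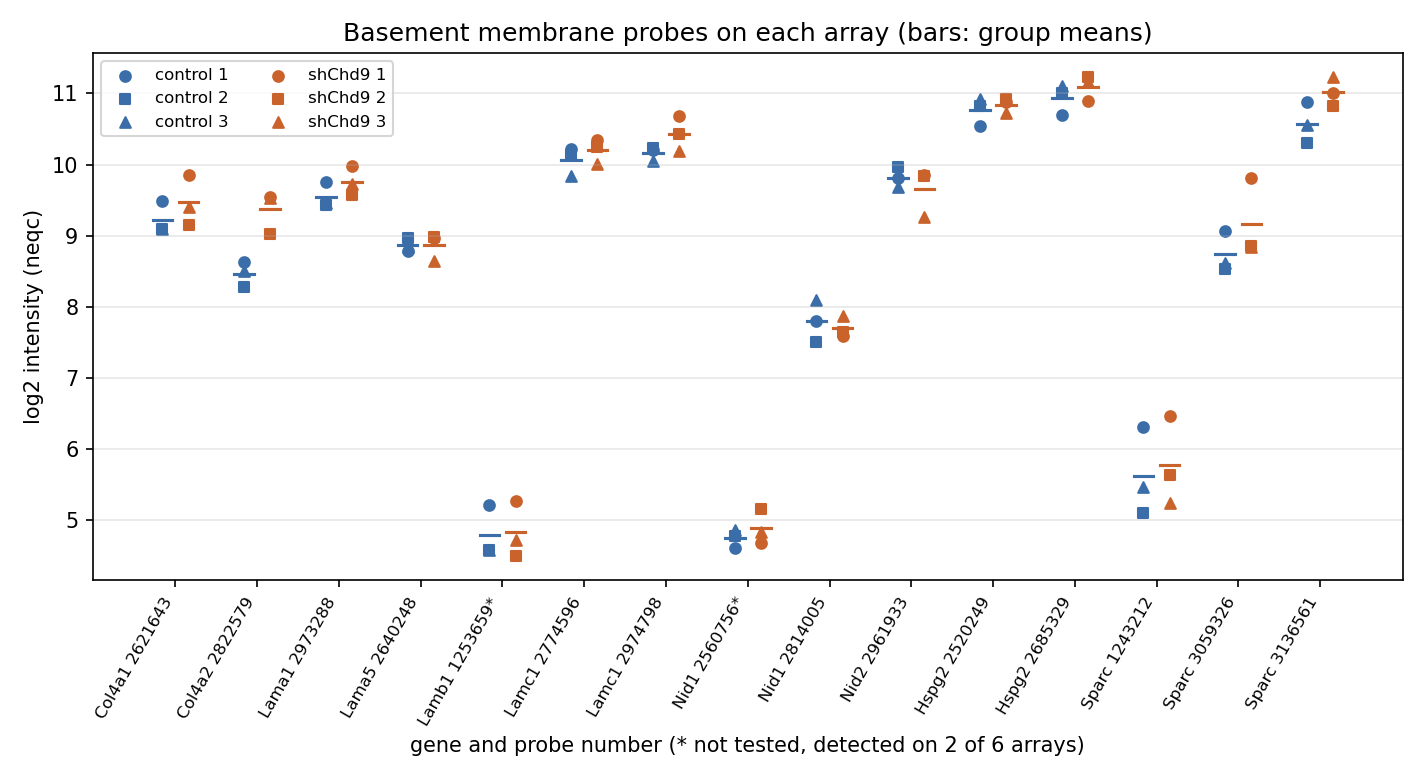
Log2 intensity of the 15 probes of the 10 genes on each of the 6 arrays, with control arrays in blue, shChd9 arrays in orange, a symbol per replicate and a bar at each group mean. Col4a2 is the 1 tested probe of 13 whose groups do not overlap, and heights of different probes are not comparable.

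Among the laminin chains none stood apart by group. Lama1, the alpha chain of the embryo's earliest laminin, read 9.75, 9.43 and 9.46 in the controls, against 9.97, 9.57 and 9.73 under shChd9. Control 1 lay above shChd9 2 and shChd9 3, and the log2 fold change was 0.21 with an interval of -0.18 to 0.61 (limma, adjusted p = 0.945). Lama5, the alpha chain that is widespread in later epithelia, read 8.79, 8.96 and 8.85 in the controls, against 8.97, 8.97 and 8.64 under shChd9. It was the steadiest of the 13 probes, with its highest array 1.26 times its lowest, and its log2 fold change was 0.00 with an interval of -0.37 to 0.36.

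Lamc1, the gamma chain of most laminins, was read by a pair of probes that gave the same picture. ILMN_2774596 read 10.22, 10.14 and 9.84 in the controls, against 10.34, 10.25 and 10.01 under shChd9, and ILMN_2974798 read 10.21, 10.23 and 10.05 against 10.68, 10.43 and 10.19. On both, replicate 3 was the lowest array of either group. The log2 fold changes were 0.14 and 0.26, with intervals of -0.26 to 0.53 and -0.13 to 0.66.

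Lamb1, the beta chain that pairs with Lama1 and Lamc1, was read by 1 probe, which sat at background on most arrays and was not tested. A low level of the gene and a weak probe cannot be told apart. Its probe ILMN_1253659 read 5.21, 4.58 and 4.58 in the controls, against 5.26, 4.49 and 4.72 under shChd9. It was detected on control 1 and shChd9 1 alone, which are the arrays with the highest feeder means.

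The linker proteins also overlapped between the groups. Nid1, which bridges laminin and collagen IV, read 7.80, 7.51 and 8.10 in the controls, against 7.58, 7.64 and 7.87 under shChd9 on probe ILMN_2814005 (log2 fold change -0.11, interval -0.54 to 0.32). A further Nid1 probe, ILMN_2560756, lay near background, was detected on 2 arrays and was not tested. The related Nid2 read 9.80, 9.96 and 9.68 in the controls, against 9.85, 9.83 and 9.27 under shChd9, with shChd9 3 the lowest array (log2 fold change -0.16, interval -0.61 to 0.28).

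Hspg2, which encodes perlecan, a heparan sulphate carrier, was bright on both of its probes. ILMN_2520249 read 10.54, 10.83 and 10.92 in the controls, against 10.88, 10.92 and 10.73 under shChd9. ILMN_2685329 read 10.69, 11.00 and 11.11 against 10.90, 11.23 and 11.15. On both probes control 1 was the lowest array, and the log2 fold changes were 0.08 and 0.16, with intervals of -0.29 to 0.45 and -0.24 to 0.56.

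Sparc, which binds collagen IV and is abundant in parietal endoderm and in fibroblasts, had 3 probes that differed in their pattern. ILMN_3136561, the brightest, read 10.88, 10.30 and 10.56 in the controls, against 11.00, 10.82 and 11.23 under shChd9, with a log2 fold change of 0.44 and an interval of 0.00 to 0.88 (limma, unadjusted p = 0.0493, adjusted p = 0.922). ILMN_3059326 read 9.07, 8.54 and 8.62 against 9.81, 8.85 and 8.84, with shChd9 1 far above the rest. Its log2 fold change of 0.43 ± 0.28 (SE) was 0.11 without shChd9 1. ILMN_1243212 read 6.31, 5.10 and 5.46 against 6.46, 5.63 and 5.24, and its value of 0.15 ± 0.36 was -0.19 without shChd9 1 and -0.11 without control 2. Between the probes r over the 6 arrays ran from 0.39 to 0.86. Which parts of the transcript they read was not analysed here.

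Between control and shChd9, 0 of the 13 probes passed limma's test at an adjusted p below 0.05, as did 0 of all 17719 (0%). At an unadjusted p under 0.05 it found 2 of the 13, Col4a2 and the brightest Sparc probe, both higher in shChd9 cells, against 942 of all probes (5.32%), of which 417 were higher (2.35%). The groups did not overlap on 1 of the 13, against 10.3% of all probes (4.52% with shChd9 higher). In shChd9 cells 10 of the 13 measured higher, against 49.2% of all probes, with a median log2 fold change of 0.16 against 0.00 over all probes. That median was 0.07 without shChd9 1 and 0.29 without control 1. Several of the 13 probes read the same gene. With 1 probe per gene 6 of the 9 genes measured higher, against 49.1% of all genes, with a median of 0.21. On 11 of the 13 probes the 95% interval left room for less than a 2-fold difference either way, and the other two were Col4a2 and Sparc ILMN_3059326.

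**Figure D2:**
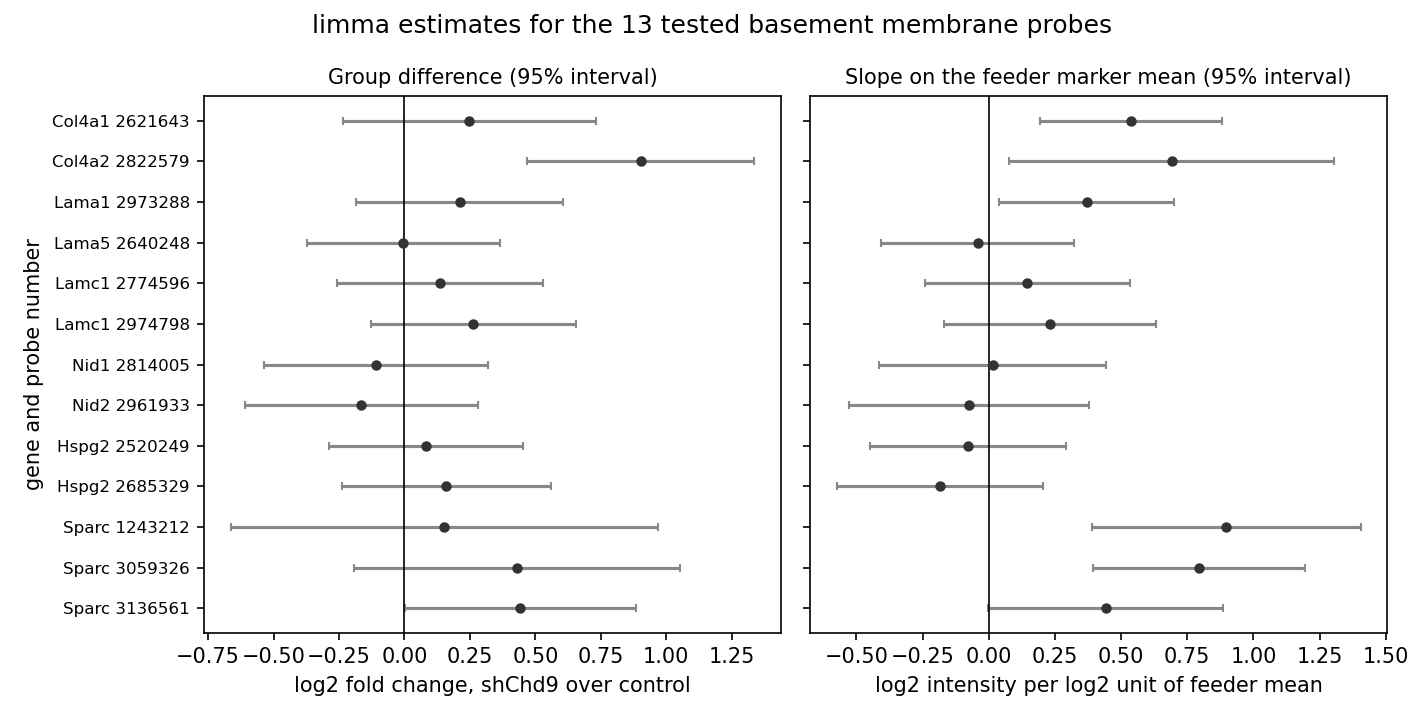
limma estimates with 95% intervals for the 13 tested probes, with the log2 fold change of shChd9 over control on the left and the slope on the feeder mean (log2 units per log2 unit) on the right. Col4a2 has the largest group difference, 0.90, and Sparc ILMN_1243212 and ILMN_3059326 have slopes of 0.90 and 0.80, but none of these passes adjustment over all probes.

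Set against the feeder mean, the genes differed. Col4a1, Lama1 and the dimmer pair of Sparc probes had the highest r of the 13 probes, while r was 0.04 or lower for Lama5, Nid1, Nid2 and Hspg2. Col4a1 correlated with the feeder mean at r = 0.95 (exact permutation p = 0.00556, n = 6) and rho = 0.83 (p = 0.0583, exact). Lama1 gave r = 0.95 (exact permutation p = 0.00833, n = 6) and rho = 0.94 (exact p = 0.0167), and its 6 arrays stood in the same order as the feeder mean but for 1 exchange of neighbours. Sparc ILMN_3059326 gave r = 0.92 (exact permutation p = 0.00556, n = 6) and rho = 0.83 (exact p = 0.0583), and ILMN_1243212 gave r = 0.85 (exact permutation p = 0.0278) and rho = 0.77 (exact p = 0.103).

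These relations were computed for all 17719 probes, and after Benjamini-Hochberg adjustment over them 0 probes passed, so the adjusted permutation p of r was 0.273 for Col4a1 and the brighter of this Sparc pair, 0.283 for Lama1 and 0.360 for ILMN_1243212. The adjusted p of rho was at least 0.367 for each of the 13. Without shChd9 1 and control 2, the arrays farthest from the median feeder mean, r was 0.94 for Col4a1, 0.84 for Lama1, 0.72 for Sparc ILMN_3059326 and 0.55 for ILMN_1243212. With each group's mean taken away r was 0.94, 0.96, 0.90 and 0.87 in the same order, as a description. Each group alone holds 3 arrays, too few for a correlation.

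For Col4a2, r to the feeder mean was lower over the 6 arrays than with each group's mean taken away, a difference not tested. Over the 6 arrays Col4a2 gave r = 0.68 (exact permutation p = 0.139, adjusted 0.565, n = 6) and rho = 0.71 (exact p = 0.136). Its r was 0.02 without shChd9 1 and control 2, so that the pooled relation rests on those arrays. With each group's mean taken away its r was 0.84, as a description, near the values of the 4 probes above. Its slope on the feeder mean was 0.69, beside 0.54 for Col4a1 and 0.37 for Lama1. The brightest Sparc probe stood close to it, at r = 0.71 (exact permutation p = 0.113, n = 6) and rho = 0.77 (exact p = 0.103), with 0.47 without those arrays and 0.67 with the group means taken away. Whether the slopes of Col4a1 and Col4a2 differ was not tested.

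The 7 tested probes of Lama5, Lamc1, Nid1, Nid2 and Hspg2 had r between -0.50 and 0.55 with the feeder mean. The lowest belonged to Hspg2 ILMN_2685329 and the highest to Lamc1 ILMN_2974798. Their levels stayed within 1.26- to 1.62-fold over the 6 arrays, while the fibroblast marker mean varied 2.85-fold. A narrow range was not particular to them, since Lama1, at r = 0.95, varied 1.45-fold and Col4a1, at r = 0.95, 1.70-fold. For Hspg2 the array order ran partly against the markers, since control 1 was lowest on both probes and shChd9 2 was highest.

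**Figure D3:**
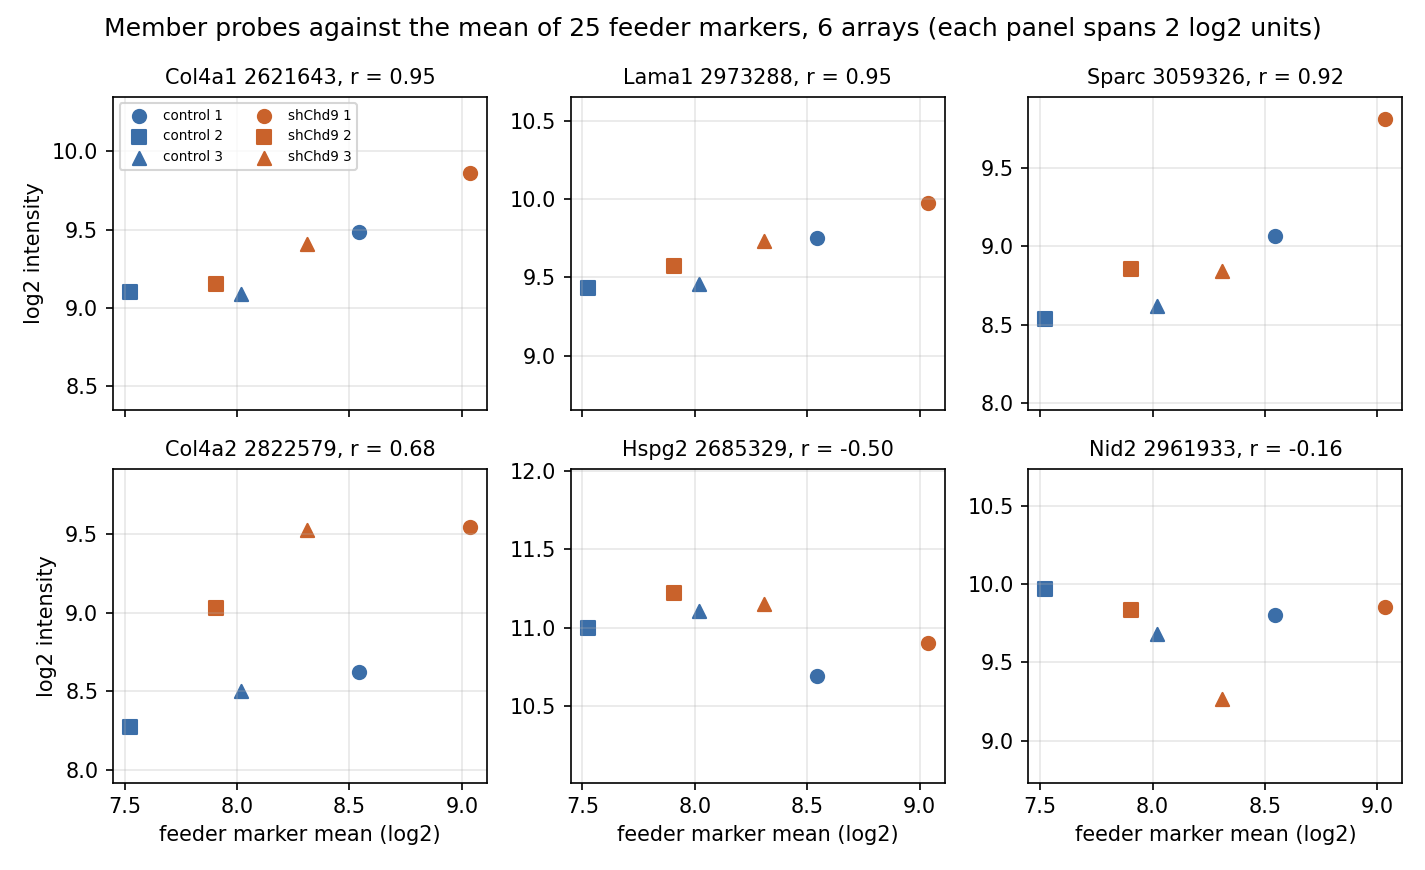
Log2 intensity of 6 probes (vertical axis, 2 log2 units in each panel) against the mean log2 intensity of 25 fibroblast markers (horizontal axis) on the 6 arrays, control in blue and shChd9 in orange. Col4a1, Lama1 and Sparc climb with the marker mean, Col4a2 splits by group at like marker means, and Hspg2 and Nid2 do not climb.

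In a limma fit of every probe on the feeder mean, 250 of 17719 probes passed at an adjusted p under 0.05 (1.41%), 222 of them with a positive slope (1.25%), and 0 of the 13 did. At an unadjusted p under 0.05 the slope was positive on 5 of the 13 (7.74% of all probes) and negative on 0 (6.16%), and 9 of the 13 had a positive slope at any p (45.8%). The 5 were Sparc ILMN_3059326 at 0.80 ± 0.18 (log2 units per log2 unit of the feeder mean, SE, adjusted p = 0.0694), Sparc ILMN_1243212 at 0.90 ± 0.23 (adjusted p = 0.0966), Col4a1 at 0.54 ± 0.15 (adjusted p = 0.142), Col4a2 at 0.69 ± 0.28 (adjusted p = 0.291) and Lama1 at 0.37 ± 0.15 (adjusted p = 0.295). Without background correction Sparc ILMN_3059326 and Col4a1 passed, at an adjusted p of 0.0114 and 0.0220, and Sparc ILMN_1243212 did not, at 0.119. With an offset of 50 in place of 16 the same 3 probes passed, at 0.00761, 0.0374 and 0.0494. The slope of the dim Sparc ILMN_1243212 was 0.48 without background correction and with the authors' series table, and 0.66 at the offset of 50. Under these settings Sparc ILMN_3059326 was the steeper of the pair, at 0.94, 0.94 and 0.88. Without shChd9 1 limma called 0 of all probes, and 1 of the 13 had an unadjusted p under 0.05; without control 2 it called 17, and 3 of the 13 did. The counts of these fits thus rest on the arrays at either end of the feeder mean.

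With the feeder mean as a covariate beside the group, Col4a2 kept a log2 fold change of 0.76 ± 0.18 (SE), against 0.90 without it (limma, adjusted p = 0.889). Col4a1 measured 0.05 ± 0.17, Lama1 0.08 ± 0.16 and Sparc ILMN_3059326 0.14 ± 0.19, against 0.25, 0.21 and 0.43 without the covariate. The brightest Sparc probe measured 0.32 ± 0.19 and Hspg2 ILMN_2685329 0.28 ± 0.17. In this fit 0 of the 13 probes passed the adjusted test, as did 0 of all probes (0%), and 1 of the 13 had an unadjusted p under 0.05, against 5.41% of all probes (2.44% with shChd9 higher). The feeder mean is itself measured on the same arrays and differed by 0.39 between the group means, so the covariate and the group share part of their spread.

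Among themselves the genes did not move as a block. Over the 36 pairs of the 9 tested genes, with 1 probe each, r across the 6 arrays had a median of -0.02, and 18 pairs were positive. The closest pair was Col4a1 and Lama1 at r = 0.98. Sparc ILMN_3059326, a probe outside this set, was close to both, at 0.95 and 0.93, and the brightest Sparc probe was close to Col4a2 at 0.89. Lama5 and Nid2 formed another pair at 0.89, while Nid1 ran against Lamc1 ILMN_2974798 at -0.69, the lowest of the 36. With the other Lamc1 probe, ILMN_2774596, outside the set, Nid1 gave -0.82. These coefficients describe 6 arrays that share 1 slide and 1 normalization.

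**Figure D4:**
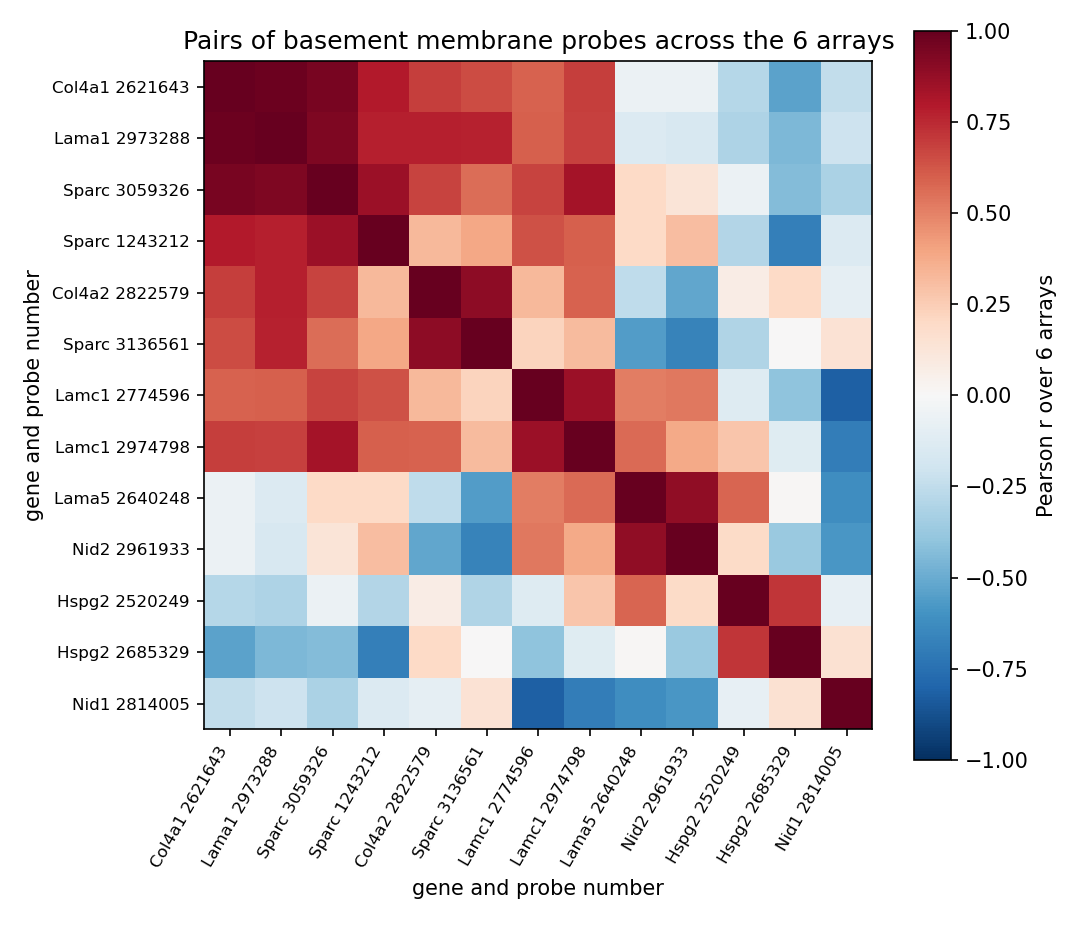
Pearson r over the 6 arrays for each pair of the 13 tested probes, from blue at -1 to red at 1. Col4a1, Lama1 and the dimmer Sparc probes form a red block at the upper left, with Col4a1 and Lama1 at 0.98, and Lama5 with Nid2 forms a separate red pair.

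Spread over the arrays differed as widely. The SD over all 6 arrays of Sparc ILMN_1243212 (0.56) stood at the 97.5th percentile of all tested probes and that of Col4a2 (0.54) at the 96.9th, whereas Lama5 (0.13) stood at the 12.8th and Hspg2 ILMN_2520249 (0.15) at the 17.0th. The mean of the 9 tested genes was 9.56, 9.42 and 9.49 in the controls, against 9.82, 9.63 and 9.67 under shChd9. These means followed the feeder mean at r = 0.83, and at 0.07 without shChd9 1 and control 2. Among 3770 other genes that were detected on every array and at least as variable as the median gene, the 8 whose levels followed this mean most closely were Limd1, Tmem43, Blcap, Meis1, Niban2, Tnfrsf12a, Gng12 and Zdhhc9, with r between 0.98 and 0.99 over 6 arrays. Meis1 encodes a homeodomain transcription factor, Tnfrsf12a the receptor of the cytokine TWEAK, Gng12 a G protein subunit and Zdhhc9 a palmitoyltransferase.

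Other components of the basement membrane showed no shared direction. Of 29 listed, 26 were on the array and 12 were tested, with 8 higher and 4 lower in shChd9 cells, a median log2 fold change of 0.12 and 0 past the adjusted test, as for all 10194 genes tested (0%). At an unadjusted p below 0.05 stood 2 of the 12, against 5.14% of all genes. The mean of the 12 followed the feeder mean at r = 0.70 over the 6 arrays. Of the 12, 1 gene, Ecm1, passed limma's test of the slope on the feeder mean (adjusted p = 0.0488), against 1.54% of all genes with a positive slope. Tinagl1, a matrix protein related to tubulointerstitial nephritis antigen, measured 5.56 in the controls, against 6.29 under shChd9 (0.73 ± 0.28, SE, adjusted p = 0.911). Smoc1, a calcium-binding relative of Sparc, measured 9.37 and 8.98 (-0.39 ± 0.17, adjusted p = 0.919), and Fbln1, a fibulin, 10.09 and 9.79 (-0.30 ± 0.16, adjusted p = 0.925). In each of these the groups did not overlap, which held for 3 of the 12 and for 10.5% of all genes. The laminin chain Lama2, detected on 3 arrays, measured 0.52 ± 0.24 (adjusted p = 0.922). The other collagen IV chains were dim: Col4a5 was detected on 5 arrays, and Col4a3, Col4a4 and Col4a6 did not pass the filter.

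Genes that fold, modify and export collagen measured mostly higher in shChd9 samples, without passing the test. Of 24 listed 19 were tested, 17 higher and 2 lower, with a median log2 fold change of 0.17 against 49.1% of all genes higher. Over the 6 arrays the mean of the list followed the feeder mean at r = 0.72, and 24 of the 25 fibroblast markers also measured higher, with a median of 0.40. With the feeder mean as a covariate beside the group, the median of the list was 0.15. In that fit 16 of the 19 measured higher, against 5085 of all 10194 genes. The part of fibroblasts in the values of the list was not tested. Plod2, a lysyl hydroxylase, measured 8.12 in the controls, against 8.49 under shChd9 (0.36 ± 0.15, SE, adjusted p = 0.918). Its groups did not overlap, and neither did those of P3h1 and Mia3, named for this after their values were seen, so that 3 of the 19 had every shChd9 array higher, against 4.4% of all genes. Bmp1, a procollagen protease, measured 0.49 ± 0.24 and Plod3, which also adds sugars to hydroxylysine, 0.34 ± 0.19, both at an adjusted p of 0.925 in limma. P3h2, a prolyl 3-hydroxylase, was detected on 3 arrays and measured 0.56 ± 0.24.

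Among the receptors for the basement membrane 16 of 19 were tested, 11 higher and 5 lower, against 49.1% of all genes higher. Their median was 0.13, with r = 0.53 between their mean and the feeder mean. The integrin subunits Itgav and Itga1, the latter detected on 3 arrays, measured 0.50 ± 0.22 and 0.56 ± 0.30 (SE). Gpc1, a cell surface heparan sulphate proteoglycan, measured 0.49 ± 0.24, and Dag1, the laminin receptor dystroglycan, -0.33 ± 0.18. The groups of Dag1 did not overlap, which held for 1 of the 16 receptors and for 10.5% of all genes. Of 17 proteases and inhibitors 14 were tested, 11 higher and 3 lower, with a median of 0.38. Ctsl, a lysosomal protease, measured 0.57 ± 0.17 (adjusted p = 0.911), Timp3, an inhibitor that binds matrix, 0.52 ± 0.21, the gelatinase Mmp9 0.55 ± 0.27 and Timp1 0.42 ± 0.23. Of these 14 genes 1, Ctsl, had non-overlapping groups. No gene of either list passed the adjusted test, and the mean of the protease list followed the feeder mean at r = 0.99 over the 6 arrays. Of its genes 2 passed the test of the slope on the feeder mean with a positive slope, against 1.54% of all genes, and of the receptors 0 did.

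Markers of the other cells that could supply these transcripts were given by the same lists. The 9 tested endoderm markers of 16 averaged 6.42, 5.97 and 6.21 in the controls, against 6.71, 6.10 and 6.29 under shChd9, with r = 0.99 to the feeder mean, and Gata4, Foxa2, Ttr and Afp did not pass the filter. Taken singly, the 9 had r to the feeder mean from -0.57 to 0.97. Of the 9, 3 passed the test of the slope on the feeder mean with a positive slope, against 1.54% of all genes. They were Dab2, Thbd and Plat. In shChd9 cells 8 measured higher and 1, Amn at -0.22, lower, with a median log2 fold change of 0.08. Gata6, a regulator of primitive endoderm, measured 0.51 ± 0.16 (log2 fold change, SE, limma, adjusted p = 0.911), at r = 0.30 to the feeder mean. Its groups did not overlap, which held for 1 of the 9 and for 10.5% of all genes. The 8 tested trophectoderm markers of 12 averaged 6.71 to 6.92 in the controls, against 7.05 to 7.36 under shChd9, with r = 0.80 to the feeder mean. Of these 6 measured higher, Krt18 at 0.71 ± 0.23 first, and 2 lower, Ascl2 at -0.17 and Tfap2c at -0.11. The 7 tested endothelial markers of 12 averaged 7.08 to 7.36 in the controls and 7.11 to 7.28 under shChd9, with r = -0.79 to the feeder mean, and Kdr, Cdh5, Tie1, Emcn and Cd34 did not pass the filter. Of the 7, 4 measured higher, Esam at 0.61 ± 0.16 first, and 3 lower, Vwf at -0.63 ± 0.26 and Egfl7 at -0.34 ± 0.18 among them. Non-overlapping groups were found for 1 of the 7, Esam. The stem cell markers averaged 10.73 to 10.94 in the controls, against 10.68 to 10.93 under shChd9, with 10 higher and 9 lower, r = -0.74 to the feeder mean, and Tdgf1 at -0.54 ± 0.25. Of the fibroblast markers S100a4, detected on 3 arrays, measured 0.59 ± 0.25 and Tagln 0.39 ± 0.17, the latter with non-overlapping groups, as 1 of 25. The part of any of these cells in the levels of the 10 genes was not tested.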

How the data were processed

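RNA of 6 samples was measured on 6 bead arrays. Per the file headers, the deposited table gives each probe's intensity and its detection p-value. The intensities are linear, and no normalization or background subtraction was seen in them. The submitters' processing notes name GenomeStudio without settings. The authors' series table holds intensities within 1.59 of the raw ones quantile normalized here, and served as an alternative. Its column medians were 111.4, 111.389, 111.397, 111.377, 111.385 and 111.368 for control 1 to 3 and shChd9 1 to 3. It is on a linear scale with no centring, and holds no ratio and hence no direction.

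Gene symbols came from the platform annotation, updated through Entrez identifiers with RefSeq (GRCm38.p6). Of the probes 34885 had 1 symbol, 18 several and 10378 none. Replicates were numbered in order of deposit, and the labels pair no samples. neqc of limma 3.58.1 (R 4.3.3) used the detection p-values to infer negative controls for its background correction, with an offset of 16 before quantile normalization and log2. lmFit and eBayes tested group, feeder mean and both together. Tests were two-sided, at a Benjamini-Hochberg adjusted p of 0.05 across the tested probes. Gene lists used 1 probe per gene, the one with the highest mean. Permutation tests ran over the 20 splits or 720 pairings of the arrays, and the scripts were tested on simulated data. The correlations were adjusted over all tested probes, where the plan had been to adjust over the members. Named were every probe of the 10 genes, up to 4 genes of each list by smallest p, and the 8 genes most like the mean of the 9 tested genes. Others are named as defining markers, as chains of collagen IV, as members of a list that went the other way, or after their values were seen. The members and lists were chosen with earlier results of these data known. The number of arrays limits the precision.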

Additional observations from a re-analysis of the deposited data

How the results depend on the processing

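Alternatives were other background corrections and offsets, median scaling, the authors' series table, other filters, 1 probe per gene, array weights, other feeder means and each array left out. No probe was called between the groups under any of them. Probes at an unadjusted p under 0.05 numbered 942, against 2306 with no filter (45281 tested) and 553 by gene (10194 tested), and 663 to 1326 with an array left out. Members higher numbered 10 of 13, 6 of 9 by gene and 9 to 12 with an array left out, with a median log2 fold change of 0.07 to 0.29 there. Probes tracking the feeder mean numbered 250, against 495 without background correction and with the authors' series table, 585 at an offset of 50, 685 under median scaling, 386 with array weights, 75 with no filter, 84 with Col1a1 alone (Col1a2 and Col3a1 did not pass the filter), and 0 to 277 with an array left out. Members among them numbered 0, against 2 without background correction, with the authors' table and under median scaling, 3 at an offset of 50, 1 with normexp without controls and 1 with array weights, and 0 to 1 with an array left out. Members with an unadjusted slope p under 0.05 numbered 5, and 1 to 6 with an array left out. Beside the feeder mean the group fit called 1 probe at an offset of 50, 9 under median scaling and 0 to 1 with an array left out.

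Of the values that changed sign none passed the test. Under median scaling the Lama5 group value was 0.054 and the slopes on the feeder mean were 0.11 for Lama5, 0.084 for Nid2 and 0.022 for Hspg2 ILMN_2520249. The Nid1 slope was -0.023 with array weights and -0.068 with Col1a1 alone. With an array left out, group values ranged from -0.061 to 0.11 for Lama5, -0.25 to 0.041 for Nid1, -0.27 to 0.028 for Nid2, -0.028 to 0.16 for Hspg2 ILMN_2520249 and -0.19 to 0.49 for Sparc ILMN_1243212. Slopes ranged from -0.26 to 0.031 for Lama5, -0.077 to 0.33 for Lamc1 ILMN_2974798, -0.22 to 0.31 for Nid1 and -0.35 to 0.11 for Nid2. Col4a2 kept its direction under all 16 alternatives, at 0.76 to 1.07, with an adjusted p between 0.436 and 1.00. The shift of Col4a2 against Col4a1, added after seeing the data, ran from 0.54 to 0.76. The cause of these changes was not tested. No paired analysis was made, because the labels carry no replicate numbers. Over 17719 probes, deviations from the group mean correlated at 0.41, 0.38 and 0.32 between arrays of the same number in order of deposit, and at -0.28 to -0.10 between the others. This is a hint of pairs from the data and not from the design, and differences within such pairs were not tested. Deviations within a group sum to 0, so the negative values follow in part from the positive ones. Whether a fit by such pairs would change the calls was not tested. No result met the criteria for a closer look, which need groups of at least 4 samples or a further contrast. The Lamb1 probe and the further Nid1 probe lay too near background for a value of their own.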
